A study of Sus scrofa with 12 samples.

Results

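The loci described here are stretches of pig ovarian RNA that were assembled from reads but carry no gene name. They are the rows of the deposited expression table with an assembled-locus identifier (MSTRG) and an empty gene name whose mean level over 12 libraries was at least 0.5 FPKM, that is, fragments scaled by the length of the locus and by the depth of the library. By this rule 2092 of the 29150 loci of the table were taken (7.18%), which is 10.2% of the 20421 loci that reached the same level. The table holds 2437 unnamed loci in all, and 345 lay under the threshold. The unnamed locus just inside it had a mean of 0.5002 FPKM and the one just outside 0.498 FPKM.

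The libraries hold RNA of the left ovaries of New French Yorkshire gilts, which are young sows before their first litter. Estrus detection began at 165 days of age. The 6 ES gilts had regular estrus and were killed in the third estrus, and the 6 NES gilts were full sisters from the same litters with no recorded estrus. The age of the NES gilts at slaughter is not given in the sources used here, so estrus history and the stage at sampling cannot be told apart. Each library comes from 1 gilt, total RNA was depleted of ribosomal RNA, and the libraries kept strand information.

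Transcript assemblers join overlapping reads into loci and give a name only where the locus meets an annotated gene. A locus without a name can be a long non-coding RNA, an RNA made from the strand opposite to a known gene, part of an intron, an extension of a neighbouring transcript or a gene the annotation lacks. A strand is usually read from splice sites or from the library chemistry, so a locus of a single continuous exon is more likely to be left without one.

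The libraries held 58140547 to 68961955 counts, so 3 counts, the upper limit that a count of 0 allows, correspond to 0.0427 to 0.0516 CPM, the count scaled to library size, for counting error only. Ovarian markers were present: 8 of 10 granulosa markers, 5 of 5 theca markers and 6 of 8 oocyte markers passed the level of 0.5 FPKM. The library ES3 stood apart, with a summed 133 CPM of granulosa markers against 885 to 4453 in the other ES libraries and 956 CPM of macrophage markers against at most 94.5 elsewhere. ES1 had the highest summed level of luteal markers, 2292 CPM, and ES6 of epithelial markers, 230 CPM against at most 17.2 in the others. In RNA of a whole ovary, fewer cells of a type and less RNA per cell cannot be told apart.

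Most unnamed loci were short and had no strand. Of the 2092 loci, 1327 (63.4%) had no strand in the table, 442 lay on the plus strand and 323 on the minus strand. Among the 18329 named loci of the same level, 1688 (9.21%) had no strand. The loci without a strand had a median length of 317 bp, and 619 of them were shorter than 300 bp. The stranded loci had a median length of 12371 bp, against 21520 bp for named loci. The longest, MSTRG.20005 on chromosome 6, spanned 597872 bp, and the shortest, MSTRG.8862 on chromosome 15, spanned 201 bp.

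The table gives a count and an FPKM value for each locus. Up to a scale factor, their ratio gives the length over which the authors counted. That factor was set so that loci without a strand of at least 1000 bp matched their span at the median. Over all loci without a strand the implied length was then 99.9 to 114% of the locus. Its level follows from the scaling, while its narrow range shows that counted length was nearly proportional to span in this class. Among the 765 stranded loci, 506 (66.1%) had an implied length under 90% of the span, with a median of 1292 bp counted in loci of a median 13072 bp. These are loci whose transcripts skip part of the span, as spliced transcripts do. On the same scale the other 259 stranded loci were counted over at least 90% of their span, and 55 of them were longer than 50 kb. A further feature was a band of 153 stranded loci (20%) with an implied length under 300 bp in loci of up to 97925 bp. These 153 had a median of 20.6 counts per library and 1.08 FPKM.

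**Figure D1:**
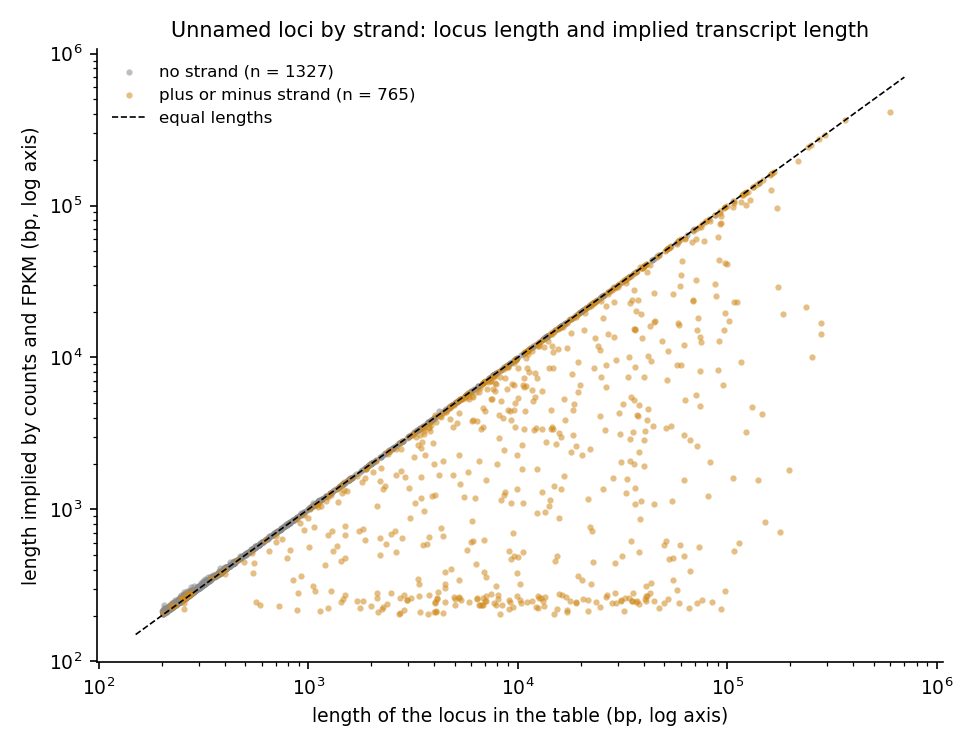
Length of each of the 2092 unnamed loci (x axis, bp, log scale) against the transcript length implied by its counts and FPKM (y axis, bp, log scale), with loci without a strand in grey, stranded loci in orange and equal lengths as a dashed line. The 1327 loci without a strand lie along the line, a level set by the scaling of the implied length. Of the 765 stranded loci, 506 lie below 90% of their span and 153 form a band under 300 bp.

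None of the descriptive fields of the table was filled for these loci. The transcript type was missing for all 2092, against 32.6% of named loci, of which 62.8% were labelled protein coding. No unnamed locus carried a Gene Ontology term or a description. A single transcript had been assembled for 1878 of them (89.8%), and the locus with the most had 43.

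By position, 315 unnamed loci overlapped a named locus, 385 lay within 5 kb of one, 667 lay at 5 to 50 kb and 725 were farther away. In the RefSeq gene table of the same build, Sscrofa11.1, 1081 loci (51.7%) overlapped no gene, while 811 lay wholly inside one. RefSeq intervals carry no strand here, so sense and antisense could not be separated for them. A match, set as a mutual overlap of at least 0.5 of both intervals, was found for 96 loci. RefSeq lists 57 of these as lncRNA, 34 as protein coding, 4 as misc_RNA and 1 as a transcribed pseudogene, and 80 of the 96 carry only a provisional LOC symbol.

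The share of unnamed loci varied among chromosomes. Chromosome Y had the highest share, with 52 of its 69 loci at 0.5 FPKM (75.4%), followed by chromosome 16 (18.5%), X (17.5%, 127 loci) and 11 (16.6%). Chromosome 12 had the lowest (4.64%) and chromosome 2 the next (5.62%). All 12 animals were gilts, and the 52 loci of chromosome Y together took 141 to 299 CPM in ES and 138 to 267 CPM in NES libraries. A cause of counts on chromosome Y in females was not tested.

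The unnamed loci were weakly covered. Their median was 51.3 counts per library, against 962 for named loci, and 428 had a mean under 20 counts. In FPKM, which allows for length, 747 lay from 0.5 to 1, 1345 at 1 or above and 13 at 10 or above. In 227 loci at least 1 library had no count. A total of 253 loci passed the threshold only through 1 group, with a mean under 0.5 FPKM in the other: 138 through ES and 115 through NES. Such loci had to differ between the groups to be included, so the main counts of changed loci below are given with and without them. The counts from alternative tools and from omitted libraries include them.

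The 2092 loci took 4.30, 5.56 and 6.52% (lowest, median, highest) of a library's counts in ES and 4.80, 5.56 and 5.76% in NES. The ranges overlapped, and the NES values lay inside the ES range. The means were 5.56 ± 0.812% (SD, n = 6) and 5.47 ± 0.340% (SD, n = 6), a difference of 0.0973 percentage points (exact two-sided permutation test, p = 0.790). ES3 was the lowest library and ES1 the highest. A few loci carried most of this share: 1 locus held 27.2% of the members' counts, the top 10 held 41.8% and the top 100 held 76.8%.

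Split by position and strand, the 485 stranded loci that overlapped no named locus held most of these counts, 3.21 ± 0.553% of a library in ES and 2.96 ± 0.258% in NES (SD, n = 6 each). The 194 loci on the strand opposite to a named locus they overlap, and overlapping none on their own strand, held 1.41 ± 0.257 and 1.60 ± 0.0537%. The 1327 loci without a strand, the largest class in number, held only 0.632 ± 0.0800 and 0.599 ± 0.0494%. The 86 loci of the same-strand class held 0.314 ± 0.0391 and 0.306 ± 0.0147%. This class holds loci that overlap a named locus on their own strand, with or without another on the opposite strand. Loci that overlap only named loci without a strand were also put in it. In exact permutation tests with Benjamini-Hochberg adjustment over these 4 classes, none differed between the groups (adjusted p = 0.407 for the opposite-strand class and 0.586 to 0.647 for the others). The lowest value of the opposite-strand class, 0.978%, came from ES3. Without ES2 the difference of this class, -0.248 percentage points, passed (exact permutation test, adjusted p = 0.0433). With any other single library left out it did not pass (adjusted p = 0.236 to 0.632, same exact test).

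**Figure D2:**
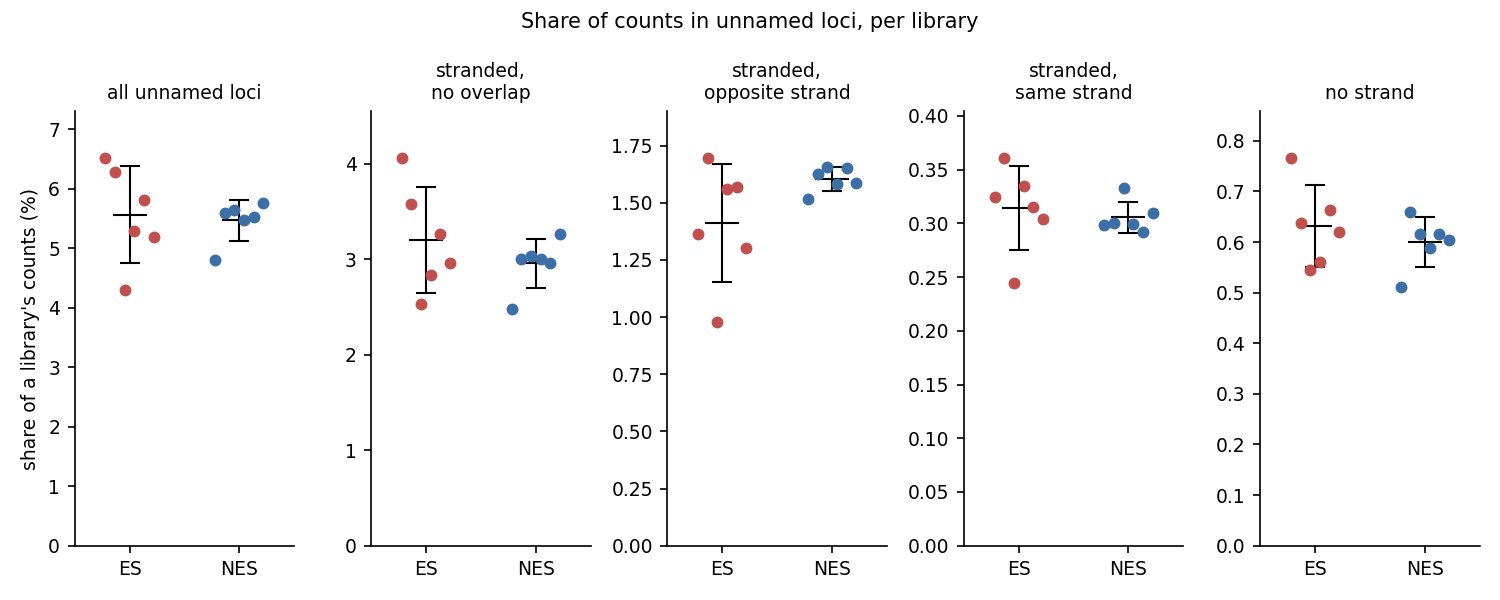
Share of each library's counts (y axes, percent, from 0) in all 2092 unnamed loci and in the 4 classes by strand and overlap, with 1 point per library (6 ES in red, 6 NES in blue), the mean as a bar and the SD as whiskers. ES values spread more widely than NES values, from 4.30 to 6.52% against 4.80 to 5.76% for all loci, and the groups overlap in every panel.

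The most abundant unnamed locus was MSTRG.11548 (chr2:6750250-6757184, minus strand, 6935 bp). Its FPKM was 1629, 1776 and 2257 (lowest, median, highest) in ES and 1266, 1568 and 2013 in NES. On its lower-coordinate side it lies 1 bp from a small named locus of the Rfam family RF01684 and lies inside the RefSeq lncRNA LOC102163816, between LTBP3 and FRMD8. A further named locus on the minus strand, MSTRG.11550 (chr2:6773029-6811687, mean 141 FPKM), carries the Rfam names RF01957, RF01956 and RF01955. In mammals the abundant nuclear lncRNAs MALAT1 and NEAT1 are made between LTBP3 and FRMD8. The table gives neither symbol, and the identity of MSTRG.11548 was not tested. The locus alone took 1.61 ± 0.222% of counts in ES and 1.40 ± 0.221% in NES (SD, n = 6 each), which overlapped (exact two-sided permutation test, p = 0.121). Without NES6 the share of counts of MSTRG.11548 differed by 0.284 percentage points (p = 0.0411, same exact test). This p was not adjusted for the choice of the library left out. Without MSTRG.11548 the unnamed loci held 3.95 ± 0.755 and 4.07 ± 0.205% (p = 0.699, same exact test).

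Among the next loci by FPKM, MSTRG.16839 and MSTRG.10452 had even levels in all gilts. MSTRG.16839, 447 bp from the named locus of the zinc finger gene ZC3H10 on the same strand, had 131 to 179 FPKM in ES and 145 to 205 FPKM in NES. MSTRG.10452 on chromosome 17 matches the RefSeq lncRNA LOC110257452 over 98.9% of both intervals and had 21.9 to 31.8 and 21.3 to 30.4 FPKM. MSTRG.9971 on chromosome 16, part of whose span falls in the RefSeq gene SEMA5A, an axon guidance gene, had 6.72 to 23.3 and 13.7 to 19.4 FPKM. MSTRG.11403, 6 bp from the Rfam locus RF01973 on chromosome 2, had 24.0 to 42.9 FPKM in ES. Its NES values ran from 20.6 to 69.1 FPKM, and the highest, NES6, lay far from the other 5.

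A further 4 of the 10 loci with the highest FPKM were far higher in ES2 than in any other library, and ES2 held 69.6 to 78.0% of the summed CPM in 3 of them and 36.4% in MSTRG.25342. The largest was MSTRG.20342 (chr7:10867703-10868342, no strand), with 624 FPKM in ES2 and 65.4 FPKM in NES2, against 6.35 to 28.2 FPKM in the other 10 libraries. MSTRG.7074 on chromosome 14 had 363 and 44.3 FPKM in those libraries, and 6.07 to 14.3 FPKM elsewhere. MSTRG.3493 on chromosome 11 had 200.2 and 33.5 FPKM, and 3.74 to 9.59 FPKM elsewhere. MSTRG.25342 on chromosome Y had 400.1 and 176 FPKM, and 36.7 to 82.6 FPKM elsewhere. ES2 and NES2 were thus the highest libraries of their groups in all 4 loci, which are 219 to 640 bp long. Both libraries exceeded every other by more than 1.5 times in 7 unnamed loci and in 7 of the 18329 named ones. Whether these gilts share a litter is not stated in the labels.

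By CPM, which is not corrected for length, the leading loci after MSTRG.11548 were long. MSTRG.9490 (chr16:4915778-5159178, minus strand) matches FBXL7, an F-box protein gene of RefSeq, over 59.4% and had 1092 to 2000 CPM in ES and 1410 to 1807 CPM in NES. MSTRG.17878 and MSTRG.19943 overlap the RefSeq genes WWOX and ROR1, a tumor-associated oxidoreductase and a receptor tyrosine kinase-like protein, with 2.06 and 3.08 FPKM. MSTRG.20006, MSTRG.20008 and the longest locus MSTRG.20005 overlap the RefSeq gene DAB1, an adaptor protein gene known from neuronal positioning, with 2.91, 2.05 and 1.08 FPKM. MSTRG.6547, MSTRG.5499, MSTRG.11311 and MSTRG.16991 are opposite in strand to the named loci of ROBO2, PTPRG and SUGCT and to a locus of small RNA names (RF00026 and ssc-mir-9808), with 2.41 to 4.15 FPKM.

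In the 10 RefSeq matches of highest FPKM, MSTRG.20458 described below included, the levels of the groups overlapped. MSTRG.11716 matches LOC110259264, listed as protein coding, with 11.3 to 15.9 FPKM in ES and 10.6 to 14.6 FPKM in NES. MSTRG.12252, MSTRG.21514 and MSTRG.11112 match the lncRNAs LOC100513397, LOC100152407 and LOC100519283, with mean levels of 5.61, 5.42 and 5.15 FPKM. MSTRG.16563 and MSTRG.6809 match the protein-coding entries LOC110260836 and LOC100158108, with 4.47 and 3.18 FPKM. MSTRG.11926 matches HPS5 over 74.6%, a gene of lysosome-related organelle formation, with 3.28 FPKM.

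The opposite-strand loci of highest FPKM lay against genes of varied function. MSTRG.9954 overlaps SPARC, a secreted matrix glycoprotein gene, over 8033 bp and had 5.27 to 9.82 FPKM in ES and 5.65 to 8.72 FPKM in NES. MSTRG.14966 lies wholly against GREB1, a gene known as estrogen regulated, and had 0.982 to 9.44 and 3.96 to 8.37 FPKM. MSTRG.10462, MSTRG.7780 and MSTRG.16516 lie wholly against SOGA1, the transcriptional coregulator gene ZMIZ1 and the cytochrome b5 reductase gene CYB5R3, with means of 5.88, 4.91 and 4.59 FPKM. MSTRG.1592 and MSTRG.9499, with 4.88 and 4.83 FPKM, lie against ENSSSCG00000037603;IFN-ALPHA-1 and ENSSSCG00000039222. The groups overlapped in each of these loci.

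Between ES and NES, few unnamed loci were called. The test was edgeR's quasi-likelihood test on counts across all 20421 loci with Benjamini-Hochberg adjustment, and a locus was called at an adjusted p under 0.05. In simulated counts the same test recovered 5 of 50 loci changed 1.5-fold and 21 of 50 changed 2-fold. At 3-fold and 4-fold it recovered 40 and 43 of 50, so a locus that was not called can still differ. The changed loci were drawn from all loci with a mean of at least 20 counts, named or not. Unnamed loci had a median of 51.3 counts against 962 for named ones. Recovery among unnamed loci was therefore not measured and may be lower. Across all loci 0.945% were called (0.152% higher and 0.793% lower in ES). Of the 2092 unnamed loci 6 were called (0.287%), 1 higher and 5 lower in ES, and 2 of the 5 had reached the level of 0.5 FPKM through NES only. At an unadjusted p under 0.05 there were 265 unnamed loci (12.7%), 152 higher and 113 lower, against 16.3% of all loci. Of these 265, 93 had reached the level through 1 group only, and the other 172 made up 9.35% of the 1839 unnamed loci that reached it in both groups, 86 higher and 86 lower. The 16.3% over all loci includes loci that passed through 1 group, so it cannot be set against the 9.35%. A share over all loci that passed in both groups was not worked out. The median log2 difference, ES minus NES, was 0.03 with quartiles of -0.32 and 0.38, against 0.04 with quartiles of -0.15 and 0.27 over all loci. The groups did not overlap in 7 unnamed loci higher in ES (0.335%) and 11 lower (0.526%), while over all loci the shares were 0.509 and 0.906%. Of these, 2 of the 7 and 1 of the 11 had reached the level through 1 group only. The lower coverage given above goes with these shares, and its part in them was not tested.

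By class, the calls fell in 1 locus without a strand, 2 without overlap, 2 on the same strand as a named locus and 1 on the opposite strand. The median log2 difference was 0.04 for loci without a strand, 0.05 without overlap, 0.07 on the same strand and -0.06 on the opposite strand.

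The calls depended on single libraries. Each of the 6 held without NES6, and those other than MSTRG.14524, MSTRG.3362 and MSTRG.22672 held also without ES1 and in no further case. MSTRG.22672 held without ES1, ES5 or NES6, and MSTRG.14524 and MSTRG.3362 without NES6 alone. Over all these omissions the adjusted p of the 6 loci ran from 0.00432 to 0.110 (edgeR), and no direction changed. Without ES3 and ES6 together no unnamed locus was called, and the whole table held 1 call (0.0049%). Of the 2092 unnamed loci DESeq2 called 47 higher and 36 lower in ES, against 2.26 and 2.91% of all loci (5.17% in both directions). Loci that had reached the level of 0.5 FPKM through 1 group only were not taken out of these counts.

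MSTRG.20458 (chr7:20717200-20717901, no strand, 702 bp) was the called locus with the highest level. It matches the RefSeq gene LOC110261478, listed as protein coding, over 88.4%. Its level was 9.28, 11.7 and 24.1 CPM (lowest, median, highest) in ES and 18.6, 48.3 and 75.4 CPM in NES. Of the 6 ES libraries 5 lay below every NES library, and ES1 lay above the lowest, NES6. The log2 difference was -1.84 ± 0.33 (SE; adjusted p = 0.0371, edgeR). The named locus ENSSSCG00000036093, 3569 bp away and described in the table as histone H4, also fell, with a log2 difference of -1.29 (adjusted p = 0.0413, edgeR). Histone proteins package DNA in nucleosomes, and near-identical copies of their genes can share reads, so both values are uncertain to that extent. Of the 5 markers of dividing cells 4 were measured, none at 0 in any library. All 4 fell in ES, with a summed 23.3 to 69.0 CPM in ES against 62.7 to 290 CPM in NES, and the part of dividing cells in this difference was not tested.

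MSTRG.23638 (chr9:61468036-61486088, plus strand) had the largest called difference. It overlaps no RefSeq gene, and the nearest named locus, B3GAT1, is 447978 bp away. Its level was 0.330, 1.33 and 3.40 CPM in ES and 3.76, 14.2 and 20.8 CPM in NES. The groups did not overlap, with ES2 and NES1 as the closest libraries. The log2 difference was -3.01 ± 0.59 (SE; adjusted p = 0.0390, edgeR). Its mean was 0.164 FPKM in ES and 1.40 FPKM in NES, so it reached the level of 0.5 FPKM through NES only and its difference was part of its selection.

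MSTRG.22672 (chr8:109977672-110004550, minus strand) and MSTRG.22673 (chr8:109982597-110015349, plus strand) overlap each other on opposite strands. Both lie inside a longer named locus on the minus strand, MSTRG.22668, that joins ENSSSCG00000009118 and ENSSSCG00000037176, genes without a symbol in the table. They also lie inside MSTRG.22671, a named locus of ENSSSCG00000009118 on the plus strand. MSTRG.22672 had 11.9, 19.6 and 45.2 CPM in ES and 42.5, 65.9 and 87.3 CPM in NES, and only ES5 reached the NES range. Its log2 difference was -1.57 ± 0.31 (SE; adjusted p = 0.0406, edgeR). MSTRG.22673 had 5.25, 12.6 and 23.3 CPM in ES and 16.1, 63.0 and 102 CPM in NES, where NES6 lay among the ES libraries. Its log2 difference was -2.22 ± 0.45 (SE; adjusted p = 0.0413, edgeR). It too passed through NES only, with a mean of 0.317 FPKM in ES. The joined named locus fell as well, with a mean of 126 CPM in ES against 419 CPM in NES and a log2 difference of -1.73 (adjusted p = 0.0387, edgeR). MSTRG.22671 had a log2 difference of -1.90 (adjusted p = 0.0371, edgeR). These loci cover the same stretch and can share reads, so they are not separate observations.

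MSTRG.3362 (chr11:18953030-18977638, minus strand) lies 11022 bp from CYSLTR2, a receptor gene for cysteinyl leukotrienes, on the same strand. It had 9.12, 10.7 and 12.8 CPM in ES and 14.5, 18.5 and 28.9 CPM in NES. All ES libraries lay below all NES libraries, and the log2 difference was -0.87 ± 0.17 (SE; adjusted p = 0.0413, edgeR). CYSLTR2 itself did not pass, with a log2 difference of 0.46 (adjusted p = 0.386, edgeR).

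MSTRG.14524 (chr3:79694850-79729294, plus strand) was the only called locus higher in ES. It overlaps B3GNT2, a glycosyltransferase gene that extends poly-N-acetyllactosamine chains, on the opposite strand over 9199 bp. Its level was 6.49, 8.56 and 10.5 CPM in ES and 3.79, 4.43 and 5.68 CPM in NES. The groups did not overlap, and the log2 difference was 0.86 ± 0.17 (SE; adjusted p = 0.0420, edgeR). B3GNT2 rose too, with 45.2 ± 14.6 CPM in ES against 23.2 ± 3.60 CPM in NES (SD, n = 6 each). Its log2 difference was 0.96 (adjusted p = 0.0390, edgeR).

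**Figure D3:**
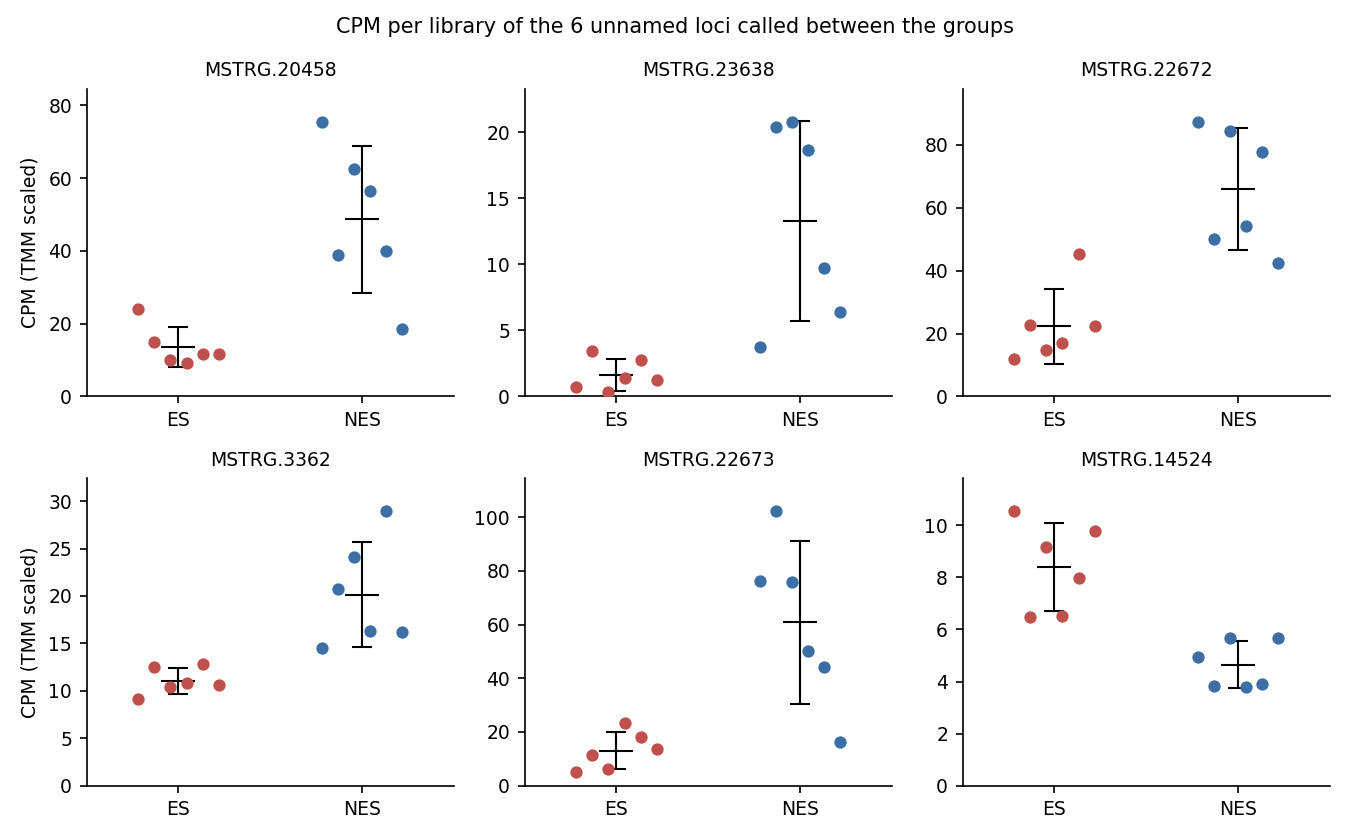
CPM per library (y axes, from 0, scaled by TMM factors) of the 6 unnamed loci called between ES (red, n = 6) and NES (blue, n = 6), with the mean as a bar and the SD as whiskers. The groups do not overlap in MSTRG.23638, MSTRG.3362 and MSTRG.14524, while 1 or 2 libraries cross in the other 3.

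Among loci that were not called, 3 of those with the smallest p had a lower level in ES. MSTRG.22835, on the strand opposite to GPRIN3, had 16.6 to 59.9 CPM in ES and 51.3 to 126 CPM in NES (log2 -1.32, adjusted p = 0.0564, edgeR). GPRIN3 had a log2 difference of -1.31 (adjusted p = 0.0673, edgeR). MSTRG.20008, opposite to DAB1 over 169448 bp, had 216 to 517 CPM in ES and 464 to 778 CPM in NES (log2 -0.87, adjusted p = 0.0647, edgeR). MSTRG.11125 on chromosome 18 had 10.2 to 24.7 CPM in ES and 25.9 to 39.5 CPM in NES. Its groups did not overlap, yet it was not called (log2 -0.90, adjusted p = 0.0673, edgeR).

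Among the uncalled loci with the smallest p and a higher level in ES, several were highest in ES1. MSTRG.23441 and MSTRG.6389 had reached the level through ES only. MSTRG.23440 and MSTRG.23441 are adjacent on chromosome 9, 80651 and 122277 bp from PLET1, and overlap the RefSeq lncRNAs LOC102164325 and LOC110255301. MSTRG.23440 had 573 CPM in ES1 and 266 CPM in ES4, against 37.7 to 116 CPM in the other ES libraries and 18.7 to 38.6 CPM in NES. MSTRG.23441 had 340.0 CPM in ES1 and 193 CPM in ES4, against 29.9 to 95.0 and 12.7 to 30.4 CPM. Their log2 differences were 2.64 and 2.56 (adjusted p = 0.0685 and 0.0626, edgeR), and 1.82 and 1.91 without ES1. MSTRG.6389 on chromosome 13 had 0.261, 0.799 and 3.51 CPM in ES and 0.0152, 0.109 and 0.242 CPM in NES. Its groups did not overlap, and 2 NES libraries lay below the 3-count limit (log2 3.45, adjusted p = 0.0609, edgeR). MSTRG.8818 on chromosome 15 had 14.8 CPM in ES1, 0.245 to 4.70 CPM in other ES libraries and 0.117 to 0.470 CPM in NES (log2 3.89, adjusted p = 0.0699, edgeR; 2.76 without ES1). MSTRG.1724 on chromosome 1, which has no strand, had 2.25 to 5.27 CPM in ES and 1.07 to 2.2 CPM in NES, with ES4 highest. Its groups did not overlap (log2 1.15, adjusted p = 0.0532, edgeR).

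A named locus called in the same test was overlapped by, or within 5 kb of, 9 unnamed loci, including 4 of the called loci above. MSTRG.19630, opposite to the laminin gene LAMA1, had 6.06 to 24.5 CPM in ES and 30.3 to 41.0 CPM in NES without overlap (log2 -1.01, adjusted p = 0.0749, edgeR). The called locus 233 bp away, MSTRG.19632, is named LAMA1 but lies on the same minus strand, inside the span of the longer plus-strand LAMA1 locus. It fell as well, with a log2 difference of -1.06 (adjusted p = 0.0479, edgeR). The plus-strand LAMA1 locus that MSTRG.19630 overlaps, MSTRG.19631, was not called (log2 -1.06, adjusted p = 0.0616, edgeR). MSTRG.7931 lies 132 bp from the mitotic kinesin gene KIF20B, which fell with a log2 difference of -1.40 (adjusted p = 0.0337, edgeR), and had a log2 difference of -0.66 (adjusted p = 0.216). MSTRG.22537 lies 1771 bp from HHIP, a hedgehog-binding protein gene that fell by 2.37 (adjusted p = 0.0358, edgeR), and had a log2 difference of -1.15 (adjusted p = 0.266). MSTRG.6623 and MSTRG.15400, near the called loci of MIS18A and ENSSSCG00000006101;ENSSSCG00000024290, had positive values of 0.85 and 0.51 (adjusted p = 0.560 and 0.661, edgeR) while these neighbours fell by 1.59 and 1.58.

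Over all unnamed loci, the difference between the groups went with that of the nearest named locus, more so at short range. Only loci whose nearest named locus also reached 0.5 FPKM were used. Where the 2 loci overlapped, the correlation of their log2 differences across 301 loci was Pearson 0.69 and Spearman 0.65, and 71.4% had the same sign. At 5 to 50 kb (498 loci) it was 0.36 and 0.27 with 62.4% of the same sign, and beyond 50 kb (432 loci) 0.22 and 0.27 with 58.3%. Within 5 kb (334 loci) the Pearson value of 0.69 rested on MSTRG.8276 beside DMBT1, and without it the values were 0.42 and 0.48. For the 184 opposite-strand pairs the values were 0.80 and 0.67, with 69.6% of the same sign. For the 84 pairs of the same-strand class they were 0.60 and 0.65, with 75%. These are descriptions across loci that come from the same libraries. Overlapping loci can share reads, and the median count per library falls from 773 for overlapping loci to 35.5 beyond 50 kb.

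**Figure D4:**
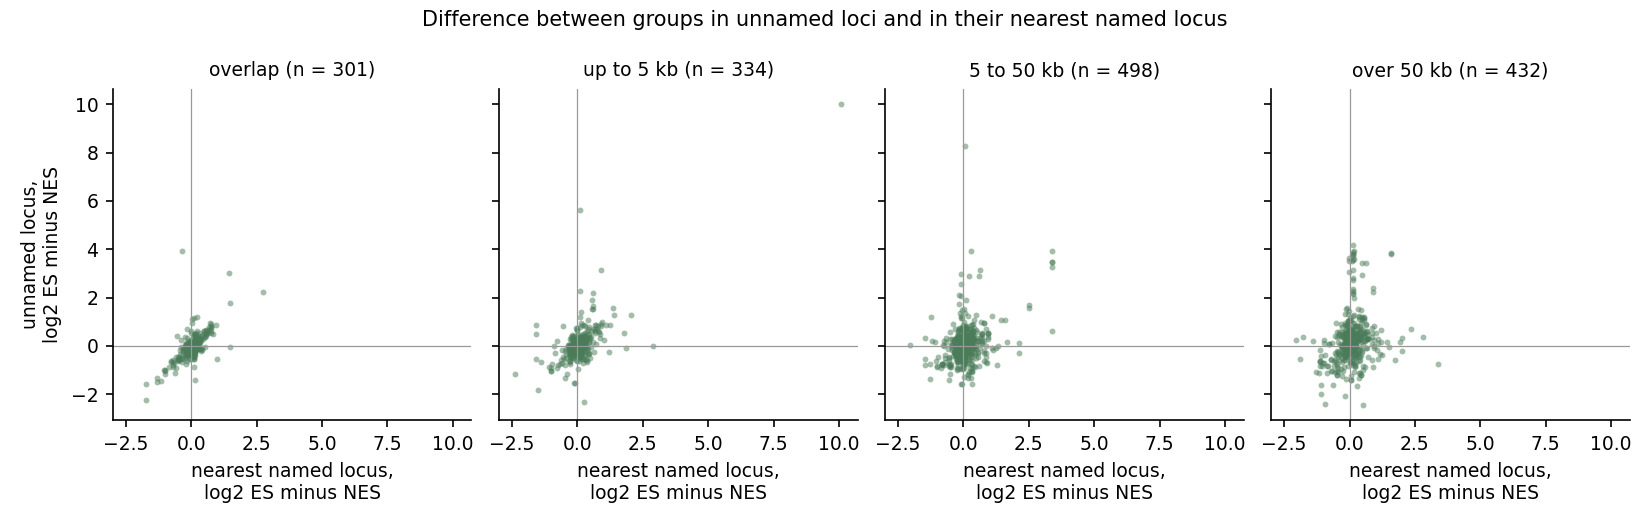
Log2 difference ES minus NES of the nearest named locus (x axis) and of the unnamed locus (y axis), with 1 point per unnamed locus in 4 panels by distance. Points follow the diagonal most closely in the overlap panel (Spearman 0.65, n = 301), and spread along the y axis beyond 5 kb. The single point at the top right within 5 kb is MSTRG.8276 with DMBT1.

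Some unnamed loci were concentrated in 1 library. In 58 of 2092 (2.77%) more than 50% of the summed CPM came from 1 library, against 233 of the named loci (1.27%). Of the 58, ES1 held 32, ES3 held 8, ES6 held 6, ES4 held 4, ES2 held 3 and ES5 held 2, and NES libraries held 3. MSTRG.8276, 3717 bp from the mucosal glycoprotein gene DMBT1, had 780 counts in ES6 (12.3 CPM) and none in the 11 other libraries. It overlaps the RefSeq gene DMBT1, whose named locus was likewise high in ES6. MSTRG.3684, which matches the protein-coding entry LOC100519511 over 97.1%, had 2351 counts in ES6 and at most 7 elsewhere. MSTRG.18189 and MSTRG.18632 on chromosome 6 had 35.2 and 12.7 CPM in ES6 and at most 0.326 and 0.299 CPM in any other library. ES6 is the library with epithelial markers: 5 of 7 were measured, and FOXJ1, a regulator of ciliated cells, had 121 CPM there, was at 0 in 3 libraries and at most 0.301 CPM in the rest. Its part in these loci was not tested. MSTRG.10165, 3149 bp from TRMT6, had 2467 counts (41.7 CPM) in ES4 and at most 13 in any other library. These 5 loci reached the level of 0.5 FPKM through ES only, so their difference was part of their selection.

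The largest group of this kind was a block of adjacent loci on chromosome X. Unnamed loci often lay side by side: with gaps of at most 10 kb, 613 (29.3%) fell in 229 runs of at least 2, and 21 runs held 5 or more. The longest run had 12 loci, MSTRG.25058 to MSTRG.25069, over 542 kb (chrX:98967186-99509522) with no named locus inside. RefSeq lists the lncRNAs LOC106507021 and LOC106507020 at its ends. The threshold for a run and this block were chosen after the values were seen.

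Of the 12 loci 10 had reached the level of 0.5 FPKM through ES only. In ES1 each of the 12 loci was far above every other library. MSTRG.25059, the strongest, had 6986 CPM in ES1, 99.0 to 417 CPM in the other ES libraries and 40.7 to 116 CPM in NES. ES1 held 51.4 to 82.6% of the summed CPM of each locus. Per kb of locus, the level in ES1 was 21.1 CPM at the first locus, 59.6 at the second, 43.4 at MSTRG.25060, 30.8 at the sixth, 15.3 at the seventh and 4.29 at the last. NES libraries had 0.348 to 0.993 CPM per kb at the second locus and 0.0884 to 0.540 at the last, a smaller relative fall than in ES1. The log2 differences of the 12 loci were 2.15 to 4.19 and none was called (adjusted p = 0.0966 to 0.191, edgeR). Without ES1 the log2 differences were 0.79 to 1.49 (adjusted p = 0.123 to 0.365, edgeR). At MSTRG.25059 the other ES libraries overlapped NES.

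The block took 1.57% of counts in ES1, 0.0320 to 0.130% of counts in ES2 to ES6 and 0.0146 to 0.0440% in NES. Without the block ES1 held 4.95% of its counts in unnamed loci, and ES2 was the highest library at 6.23%. Without the 12 loci, the unnamed loci held 5.25 ± 0.681% in ES and 5.44 ± 0.335% in NES (SD, n = 6 each), a difference of -0.190 percentage points (exact two-sided permutation test, p = 0.554). ES1 also had the highest summed level of 8 of the 12 marker lists among ES libraries, among them granulosa (4453 CPM), theca (712 CPM) and stroma (19735 CPM). Of the luteal list 3 of 6 were measured (STAR, CYP11A1 and PTGFR), none at 0 in any library, with a summed 2292 CPM in ES1, 218 to 1052 CPM in the other ES libraries and 102 to 189.7 CPM in NES. CYP11A1 carried that sum, with 1506 CPM in ES1, while STAR was highest in ES6 and PTGFR in ES3. The part of these cell types in the block was not tested.

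**Figure D5:**
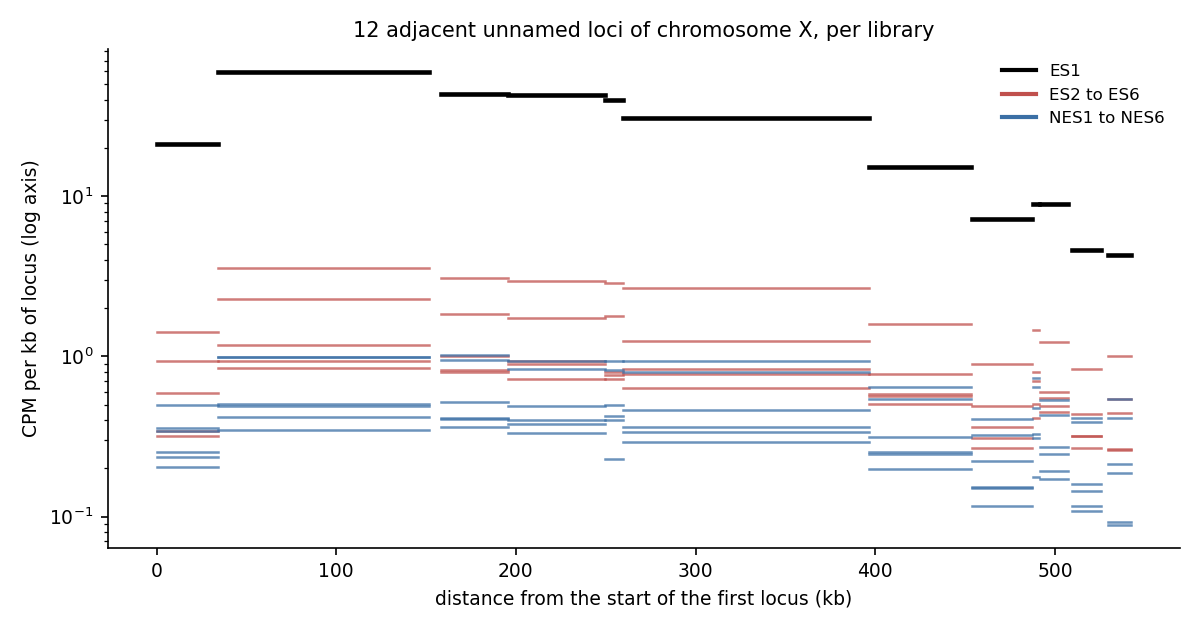
CPM per kb of locus (y axis, log scale) of the 12 adjacent unnamed loci of chromosome X, drawn at their distance in kb from the start of the first (x axis), with 1 line per library: ES1 in black, ES2 to ES6 in red and NES1 to NES6 in blue. ES1 lies above all others along the block, from 59.6 CPM per kb at the second locus to 4.29 at the last, and levels fall along the block in both groups.

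Other runs had lower or overlapping levels in ES. A run of 5 loci on chromosome 13, MSTRG.6505 to MSTRG.6509 over 275193 bp, had log2 differences of -1.22 to -0.94 and none was called. Its summed level was 108 to 1043 CPM in ES and 435 to 1659 CPM in NES, with ES5 as the highest ES library and NES5 as the highest NES library. A run of 7 on chromosome 3, which begins with MSTRG.14354 and ends with MSTRG.14357, had 205 to 335 CPM in ES and 213 to 274 CPM in NES. A run of 5 on chromosome 11, MSTRG.3528 to MSTRG.3532, had 188 to 548 CPM in 11 libraries and 2.90 CPM in ES3. These runs were chosen after their values were seen.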

How the data were processed

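Ovarian RNA of 6 ES and 6 NES gilts was measured, grouped by sample title. RNA was extracted by Trizol, and stranded dUTP libraries were made after removal of ribosomal RNA, per the labels' protocols. Tools named in the submitters' processing notes are TopHat, HISAT2, FastQC and cutadapt, with the build Sscrofa11.1. The assembler and the counter, with its use of strand and its gene models, were not given in the sources used here. Per the file headers, the authors deposited counts and FPKM values for every locus and library. All sample columns were mapped.

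Counts of the 20421 loci that reached 0.5 FPKM on average were tested with edgeR 4.0.16 (R 4.3.3; TMM factors, quasi-likelihood, no covariate), after a check on simulated counts. DESeq2 1.42.0 and limma 3.58.1 on log2(FPKM + 0.5) were alternatives. The SE is the log2 difference divided by the root of its F statistic. Shares were compared by exact permutation tests. Implied length is the count divided by FPKM and by library size, scaled so that loci without a strand of at least 1000 bp match their span at the median. Positions were compared with the RefSeq table of Sscrofa11.1.

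Loci and lists were chosen with earlier results of these data known. Named loci are the 10 highest by FPKM and by CPM, the called loci and those of smallest p with at least 1 FPKM, the longest and shortest, the 10 highest RefSeq matches, loci within 5 kb of called ones, 8 opposite-strand loci, 6 dominated by 1 library and 6 without group overlap. Others are marked in the text. Each gilt gave 1 library, so p-values measure the spread between these gilts.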

Additional observations from a re-analysis of the deposited data

Results flagged for a closer look

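Among 148 groups of 6 libraries examined, for shares of counts and for the CPM of the named loci, 40 held a library whose gap to the nearest other exceeded 0.625 of the group's range. Chance flags about 1 in 20 groups, and loci named for being high in 1 library were bound to be among them.

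In ES, ES1 stood apart in all 12 loci of the chromosome X block: 723 CPM in MSTRG.25058, 6986 in MSTRG.25059, 1606 in MSTRG.25060, 2278 in MSTRG.25061, 390 in MSTRG.25062, 4201 in MSTRG.25063, 868 in MSTRG.25064, 239 in MSTRG.25065, 30.8 in MSTRG.25066, 143 in MSTRG.25067, 74.8 in MSTRG.25068 and 54.3 in MSTRG.25069. ES1 was also apart in MSTRG.8818 (14.8 CPM) and MSTRG.7780 (120 CPM), and was the low library in MSTRG.12252 (10.8 CPM).

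ES6 stood apart in MSTRG.3684 (37.1 CPM), MSTRG.18189 (35.2 CPM), MSTRG.18632 (12.7 CPM) and MSTRG.8276 (12.3 CPM), and ES4 in MSTRG.10165 (41.7 CPM). ES2 did so in MSTRG.20342 (511 CPM), MSTRG.7074 (177 CPM), MSTRG.3493 (56.1 CPM) and MSTRG.25342 (138 CPM), the loci in which NES2 stood apart in its own group at 49.0, 19.7, 8.60 and 55.7 CPM. ES5 was apart in MSTRG.22672 (45.2 CPM) and MSTRG.8862 (0.538 CPM), and ES3 in MSTRG.11926 (60.4 CPM).

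In NES, NES1 had the lowest share of counts in unnamed loci, 4.80%, and was apart in MSTRG.11112 (9.84 CPM), MSTRG.11926 (53.1 CPM) and, as the low library, MSTRG.16563 (62.6 CPM). NES5 was high in MSTRG.7931 (5.77 CPM) and low in MSTRG.7780 (43.3 CPM). NES6 was apart in MSTRG.11403 (157 CPM). NES4 was apart in MSTRG.6623 (0.387 CPM) and MSTRG.3684 (0.113 CPM, where the 5 others had no count).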

How the results depend on the processing

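The counts of called unnamed loci depended on the tool and on single libraries, and the cause was not tested. Loci that had reached the level of 0.5 FPKM through 1 group only were not taken out of the counts given here. Against 1 higher and 5 lower, DESeq2 gave 47 and 36 (1055 over all loci, against 193). Limma gave 16 lower on log2(FPKM + 0.5), 12 with a pseudocount of 0.1 and 15 with 1 (337, 334 and 319 over all loci), each with 1 higher, and turned the median log2 difference to -0.0706, -0.10 and -0.0501. With no filter there were 0 higher and 0 lower (28 over all loci), and with a mean FPKM of at least 1 there were 3 lower. Without ES3 and ES6 together there were 0 and 0, with 1 over all loci. Leaving out 1 library gave 0 to 5 higher, 0 to 9 lower, 0 to 415 over all loci and medians of 0.00 to 0.06. Libraries whose omission left 0 unnamed calls were ES2, ES4, ES6 and NES1 to NES5.

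The labels do not tie title numbers to litters. Correlations of same-numbered deviations were -0.07 to 0.29, and 2 of 6 ES libraries matched their own number best. Differences in marker levels between libraries also enter these deviations, so the correlations cannot show whether same-numbered gilts share a litter. With a replicate block there were 0 higher, 0 lower and 0 calls over all loci, and the median was -0.02.

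The difference in the share of counts, 0.0973, was -0.0664 without the 10 loci of highest CPM and -0.190 without the X block, an alternative added after seeing the data. Without 1 library it ran from -0.0930 (ES1) to 0.351 (ES3), and was negative also without ES2 or NES1. The opposite-strand share ran from -0.248 to -0.105, the same-strand share from -0.000906 to 0.0224. The median locus had 51.3 counts per library, which limits the precision of its difference.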
